A study of Mus musculus with 10 samples.

Results

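The genes described here encode the nuclear-encoded subunits of the mitochondrial respiratory chain, complexes I to IV, and of the ATP synthase, complex V. They were taken by symbol: those starting with Ndufa, Ndufb, Ndufc, Ndufs or Ndufv (complex I, without the Ndufaf assembly factors), Sdha to Sdhd (complex II), Uqcr (complex III), Cox4 to Cox8 (complex IV) and Atp5 (complex V). Each gene was read by 1 probe set, the single-symbol probe set with the highest mean over all 10 arrays. This gave 82 of the 18193 genes measured: 36 of complex I, 4 of complex II, 8 of complex III, 17 of complex IV and 17 of complex V. The subunits encoded by mitochondrial DNA are not analysed here.

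RNA came from B16 tumors, a transplantable mouse melanoma, on the C57BL/6 background, in 5 tumors labelled WT and 5 labelled Bach2-deficient. Lymphocytes use the Bach2 protein as a transcriptional repressor, and the labels do not say which part of it was lost, nor whether in the host, in the tumor cells or in both. Each sample was a whole tumor broken up into single cells, with no sort named in the labels, so a value mixes melanoma cells with every other cell of the tumor. The labels do not say that the tumors of a group grew in separate animals. The p-values therefore speak of the spread among these samples, some of which could be technical.

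The respiratory chain passes electrons from NADH (complex I) and succinate (complex II) through ubiquinone to complex III, on to cytochrome c and then to oxygen at complex IV. Complexes I, III and IV pump protons across the inner mitochondrial membrane, and the ATP synthase lets them back to make ATP. Apart from complex II, each complex has a few core subunits, among them those that carry the catalysis, and more small accessory subunits around them. Several complex IV subunits exist as a widely expressed form and a paralog made mainly in muscle, lung or testis.

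Values are log2 expression, and changes are Bach2-deficient minus WT on that scale with the standard error (SE) of a limma fit over all genes. A gene rose or fell where its Benjamini-Hochberg adjusted p over all 18193 genes was under 0.05. All 10 arrays had medians from 5.8 to 5.88. Of the 3 Bach2 probe sets, 1 read 5.75 ± 0.54 on WT and 4.70 ± 0.55 on Bach2-deficient arrays (SD, n = 5 each), a fall of 1.05 (adjusted p = 0.033 over all probe sets). The other probe sets of Bach2 changed by -1.07 (adjusted p = 0.0615) and -0.35 (adjusted p = 0.371), and a probe set outside the lost part checks nothing. As a check of the labelled tissue, the mean of 14 melanocyte genes was 11.35 to 11.69 on WT and 10.74 to 11.50 on Bach2-deficient arrays, and the mean of 10 T cell genes was 6.37 to 7.91 and 9.52 to 10.84.

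Subunit RNA was lower in the Bach2-deficient tumors, by small amounts and in an uneven way. Of 82 subunit genes, 22 fell (26.8%), where 12.4% of all genes fell, and 1 rose, where 16.3% of all genes rose. The remaining 59 did not pass the test. The change was below 0 for 73 of the 82, and the median change was -0.27, against -0.064 over all genes. In a bulk sample, fewer cells of a type and less RNA per cell cannot be told apart. The groups did not overlap, with every Bach2-deficient array below every WT array, for 7 subunit genes (Ndufs5, Ndufb9, Ndufb7, Ndufb4, Cox7a2l, Atp5k and Atp5j), a share close to the 7.67% of all genes for which this held. Of these, Ndufb4 read near background, under 4.98 on all 10 arrays, and its change did not pass. The complexes differed in their share of called members: 15 of 36 fell in complex I, 0 of 4 in complex II, 1 of 8 in complex III, 2 of 17 in complex IV and 4 of 17 in complex V. These shares were not tested against each other. Genes were placed by symbol, so Ndufa4, which fell and has since been found with complex IV, counts here in complex I.

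**Figure D1:**
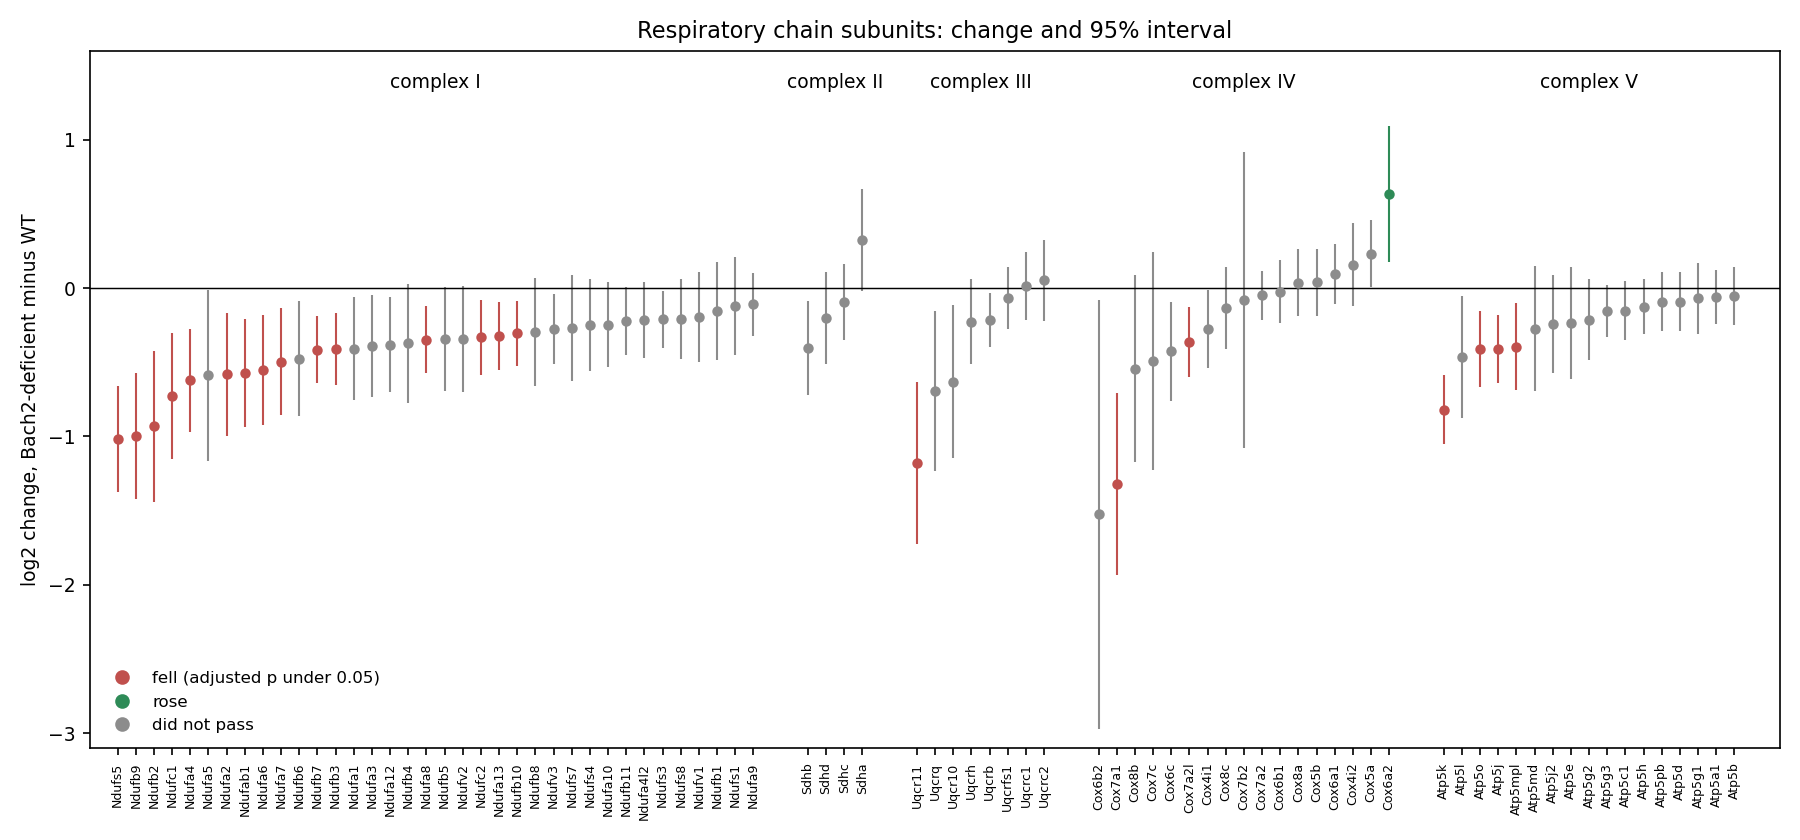
Change of each of the 82 subunit genes (log2, Bach2-deficient minus WT, n = 5 each) with its 95% interval, sorted within each complex; red genes fell and the green gene rose at an adjusted p under 0.05. All 36 complex I and all 17 complex V points lie below 0, while complex IV runs from -1.53 to 0.63.

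The count of genes that fell depended on which arrays were used, and Bach2-deficient replicate 1 stood apart from its group. Bach2-deficient replicate 1 had a median deviation of its 82 subunit values from the WT means of 0.083, within the range of the WT arrays (-0.10 to 0.11). The other 4 Bach2-deficient arrays had medians of -0.41, -0.28, -0.33 and -0.43. Replicate 1 was the highest of the 5 Bach2-deficient arrays for 72 of the 82 subunit genes, and for 30.6% of all genes. It lay below every WT array for 9 of them, whereas replicates 2 to 5 did so for 62, 59, 57 and 62. Over all genes, 21.2% lay below every WT array on replicate 1 and 26.0% to 31.8% did on the others. Without that array 45 of 82 subunit genes fell (54.9%, against 15.4% of all genes) and 0 rose (17.1% of all genes did; 1 subunit gene was higher at an unadjusted limma p under 0.05), the median change was -0.37, and all 22 genes that fell with 10 arrays fell again. The count was 10 without Bach2-deficient replicate 2, 13 without replicate 3, 12 without replicate 4 and 12 without replicate 5, and it was 11, 14 and 14 without WT replicates 1, 3 and 5. Calls over all genes moved the same way: the share that fell was 7.63%, 9.31%, 7.95% and 8.95% without Bach2-deficient replicates 2 to 5, and 9.23%, 10.9% and 11% without those WT replicates. Replicate 1 also stood apart in cell markers: its melanocyte mean was 11.50 (10.74 to 11.15 on the other Bach2-deficient arrays), its T cell mean 9.52 (9.98 to 10.84), its macrophage mean 10.45 (10.99 to 11.22) and its cell cycle mean 10.36 (9.57 to 9.84). Beyond a fit with the melanocyte mean as a covariate, the part of these markers in the subunit values was not tested. Replicate 1 was singled out by the subunit values themselves. Calls and p-values from fits without it, here and below, therefore only describe the dependence on that array and are not separate support.

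**Figure D2:**
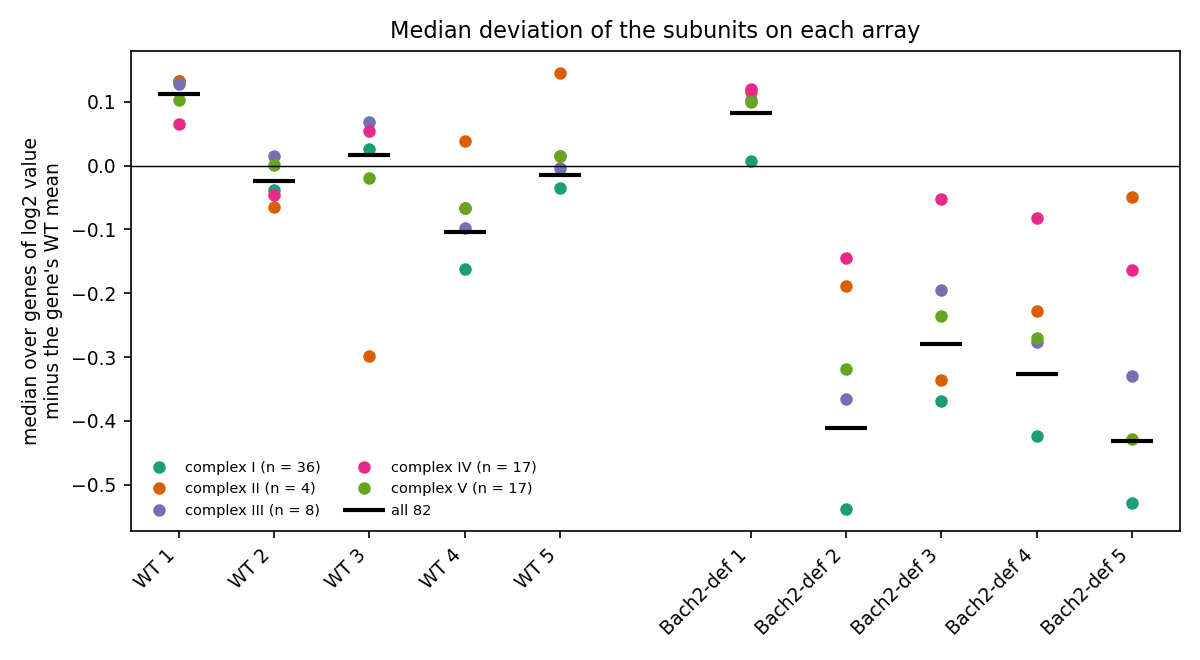
Median over genes of the log2 value minus the gene's WT mean, for each of the 10 arrays; coloured points are the 5 complexes and the black bar is all 82 genes. Bach2-deficient replicate 1 (0.083) sits with the WT arrays, and the other 4 Bach2-deficient arrays lie at -0.28 to -0.43.

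Promoter sequences are given for the leading genes of 4 complexes, because subunit genes are known to share control by the factors NRF1, GABP (an ETS factor) and ERR, and BACH factors bind AP-1 type sites. RefSeq promoter entries (GRCm38.p6) were matched for 67 of the 82 genes, with 72 entries, and both strands of the 250 bases before the start were searched. The NRF1 core CGCATGCG was in 8.33% of subunit entries and 1.55% of all 32851 entries, and the ETS core CCGGAAG in 16.7% and 6.91%. The ERR site AAGGTCA was in 6.94% and 4.08%, and the AP-1 type letters TGANTCA in 8.33% and 6.75%. Of the 21 entries of genes that fell, 3 held the NRF1 core (Atp5j, Atp5k and Ndufa8), 3 the ETS core (Atp5j, Ndufb7 and Uqcr11), 2 the ERR site (Ndufb2 and Ndufs5) and 1 the AP-1 type letters (Ndufa13). A match is a description of the letters and not a bound site. The 120 bases just before the start are printed 5′ to 3′ on the gene's strand for Ndufs5 (chr4:123718187-123718306, minus strand), Uqcr11 (chr10:80406822-80406941, minus strand), Cox7a1 (chr7:30184051-30184170, plus strand) and Atp5k (chr5:108434400-108434519, minus strand), with a match to any of these motifs in capitals: the ETS core in Uqcr11, the NRF1 core in Atp5k, and none in the Ndufs5 and Cox7a1 windows.
Ndufs5: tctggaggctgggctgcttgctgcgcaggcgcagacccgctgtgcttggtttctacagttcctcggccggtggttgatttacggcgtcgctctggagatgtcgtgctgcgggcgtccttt
Uqcr11: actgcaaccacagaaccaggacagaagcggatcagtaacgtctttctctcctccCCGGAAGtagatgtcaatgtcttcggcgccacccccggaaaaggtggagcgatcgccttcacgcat
Cox7a1: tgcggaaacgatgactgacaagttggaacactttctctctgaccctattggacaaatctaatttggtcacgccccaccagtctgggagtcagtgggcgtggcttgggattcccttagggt
Atp5k: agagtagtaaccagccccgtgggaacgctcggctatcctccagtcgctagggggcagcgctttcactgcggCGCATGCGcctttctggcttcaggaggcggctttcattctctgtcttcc

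Complex I, the NADH dehydrogenase, held most of the genes that fell. All 36 of its measured genes by symbol, Ndufa4 and Ndufa4l2 among them, had a change below 0, with a median of -0.34, and 15 of them fell. Of the 30 accessory genes 15 fell, and of the 6 measured core genes 0 did. By the symbol's letter, 7 of 14 Ndufa genes, 5 of 11 Ndufb genes (subunits of the membrane arm), 2 of 2 Ndufc genes, 1 of 6 Ndufs genes and 0 of 3 Ndufv genes fell. Without Bach2-deficient replicate 1, 27 of the 36 fell. The number was 6, 7, 7 and 7 without Bach2-deficient replicates 2, 3, 4 and 5, and 7, 8 and 8 without WT replicates 1, 3 and 5.

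Ndufs5 encodes a small accessory subunit on the intermembrane-space side of the complex. Its log2 values were 11.01, 10.76, 10.42, 10.56 and 10.65 on WT arrays 1 to 5 and 10.15, 9.38, 9.56, 9.69 and 9.53 on Bach2-deficient arrays 1 to 5. Every Bach2-deficient array was below every WT array, and replicate 1 was the highest of its group. The gene fell by 1.02 (SE 0.16, 2.02-fold, adjusted p = 0.00152). It has 1 named pseudogene copy, whose RNA the probe set could also read.

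Ndufb9, an accessory subunit of the membrane arm, read 12.25, 12.21, 12.02, 11.87 and 12.05 on the WT arrays. On the Bach2-deficient arrays it read 11.80, 10.85, 11.11, 10.93 and 10.72. The groups did not overlap, but replicate 1 lay just under the lowest WT array and about 1 log2 unit above the lowest of its own group. The gene fell by 1.00 (SE 0.19, adjusted p = 0.00388). A second bright probe set of Ndufb9 fell as well (-0.92), and a dim one did not pass (0.39).

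Ndufb2, another membrane arm subunit, had WT values of 11.60, 11.19, 11.51, 10.99 and 11.15 and Bach2-deficient values of 11.12, 9.86, 10.49, 10.30 and 9.998. Here replicate 1 lay within the WT range and the other 4 arrays lay below it. The fall was 0.93 (SE 0.23, adjusted p = 0.0131). Ndufa4, named as a complex I subunit and since found with complex IV, fell by 0.62 (SE 0.16, adjusted p = 0.0147), from 12.42 ± 0.13 to 11.80 ± 0.34 (SD, n = 5 each). The other 11 complex I genes that fell changed by -0.73 to -0.31. They were Ndufc1, Ndufa2, Ndufa6, Ndufa7, Ndufb7, Ndufb3, Ndufa8, Ndufc2, Ndufa13, Ndufb10 and the acyl carrier protein gene Ndufab1.

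**Figure D3:**
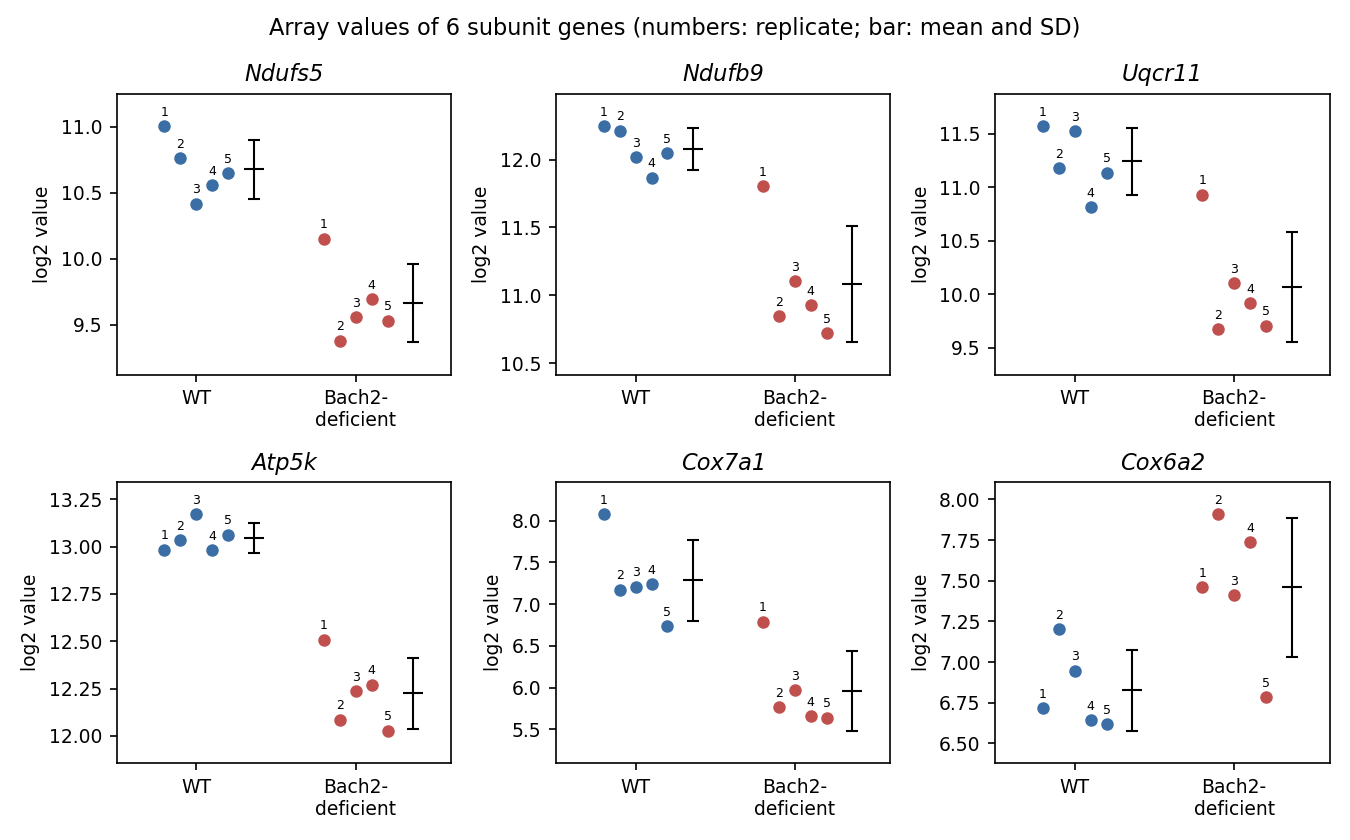
Log2 values on each array of 6 subunit genes (blue, WT; red, Bach2-deficient; the number is the replicate; the bar is the mean ± SD, n = 5). Replicate 1 is the highest Bach2-deficient array for Ndufs5, Ndufb9, Uqcr11, Atp5k and Cox7a1, and Cox6a2 runs the other way, with replicate 5 (6.78) inside the WT range.

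The 6 measured core genes of complex I changed by -0.34 to -0.12, and none passed. They encode the flavin-binding subunit that takes electrons from NADH (Ndufv1, -0.19), iron-sulphur subunits that pass them on (Ndufv2, -0.34; Ndufs1, -0.12; Ndufs7, -0.27; Ndufs8, -0.21) and a structural core subunit (Ndufs3, -0.21). At an unadjusted limma p under 0.05 the count was 1, Ndufs3, whose adjusted p was 0.096. Ndufs3 read 12.27, 12.11, 12.10, 12.17 and 12.26 on WT and 12.18, 11.90, 11.95, 11.91 and 11.92 on Bach2-deficient arrays. Replicates 2 to 5 were below all WT arrays, and replicate 1 was in the middle of the WT values. Without replicate 1, Ndufv2 (-0.48, adjusted p = 0.0131), Ndufs7 (-0.41, adjusted p = 0.0218) and Ndufs3 (-0.26, adjusted p = 0.0314) fell, and the other 3 core genes did not pass.

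Complex II, succinate dehydrogenase, which also serves the tricarboxylic acid cycle, had 0 of 4 genes called by limma, and 1, Sdhb, had an unadjusted p under 0.05. Sdhb, its iron-sulphur subunit, read 11.24, 11.13, 11.07, 10.98 and 11 on the WT arrays and 11.21, 10.45, 10.63, 10.56 and 10.56 on the Bach2-deficient arrays. Replicate 1 was near the top of the WT range and the other 4 lay below every WT array. The change of -0.40 (SE 0.14, 95% interval -0.72 to -0.09) missed the threshold (adjusted p = 0.0563), and without replicate 1 the gene fell by 0.53 (adjusted p = 0.00182). The membrane anchors Sdhc and Sdhd changed by -0.09 and -0.20 (adjusted p = 0.561 and 0.308).

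Sdha, the flavoprotein that oxidises succinate, had a change above 0. It read 11, 10.79, 10.71, 11.47 and 11.38 on WT and 11.42, 11.46, 11.38, 11.47 and 11.24 on Bach2-deficient arrays. WT replicates 1 to 3 were low and WT replicates 4 and 5 high, and 4 of the 5 Bach2-deficient arrays lay at the level of the high ones. Its change of 0.32 (SE 0.15, 95% interval -0.02 to 0.67) did not pass (adjusted p = 0.14). A second bright probe set of Sdha changed by 0.42 and rose when each probe set was tested by itself (adjusted p = 0.00938 over all probe sets). Averaged over its probe sets, Sdha rose by 0.45 (limma adjusted p = 0.00694). That mean takes in low probe sets (4.92 to 5.74, a change of 0.82, and 4.35 to 4.59, a change of 0.24), so its size is not exact.

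In complex III, the cytochrome bc1 complex, 1 of 8 genes fell. Uqcr11 encodes its smallest subunit. Its values were 11.57, 11.18, 11.52, 10.81 and 11.14 on WT and 10.93, 9.67, 10.10, 9.92 and 9.71 on Bach2-deficient arrays. Replicate 1 lay between the lowest and the second lowest WT array, and the other 4 were lower than every WT array. The gene fell by 1.18 (SE 0.25, 2.26-fold, adjusted p = 0.00589). The other 4 small subunit genes changed by -0.69 to -0.21, with 0 calls. All 5 small subunit genes fell without Bach2-deficient replicate 1, and 2 genes of the complex fell without WT replicate 4.

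The 3 core genes that the symbol rule took for complex III stood closer to 0. Uqcrfs1, the Rieske iron-sulphur protein, changed by -0.07 (95% interval -0.28 to 0.14), Uqcrc1 by 0.01 (-0.22 to 0.25) and Uqcrc2 by 0.05 (-0.22 to 0.33). Uqcrc1 and Uqcrc2 encode the large core proteins on the matrix side. Uqcrc2 read 12.32, 12.20, 12.10, 12.20 and 12.28 on WT and 12.70, 12.18, 12.27, 12.14 and 12.07 on Bach2-deficient arrays. Replicate 1 was the highest of all 10 arrays here, and the other 4 were spread over the range of the WT arrays or just under it. None of these 3 genes passed in limma's fit with or without replicate 1, and none had an unadjusted p under 0.05 with all arrays. Cyc1, which encodes cytochrome c1 of this complex, lies outside the symbol rule and was counted with the electron carriers below. It changed by -0.53 (SE 0.19, limma adjusted p = 0.0655) and did not pass, though its unadjusted p was under 0.05.

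Complex IV, cytochrome c oxidase, divided into its widely expressed subunits and its tissue-restricted forms. None of the 9 widely expressed genes was called by limma, and 3 had an unadjusted p under 0.05 (Cox4i1 and Cox6c lower, Cox5a higher). Their changes ran from -0.49 to 0.23 with a median of -0.03. Over the complex, 4 genes fell without Bach2-deficient replicate 1, and 1 fell without WT replicate 1 or Bach2-deficient replicate 2. Cox5a and Cox5b, which face the matrix, changed by 0.23 (95% interval 0.01 to 0.46) and 0.04 (-0.19 to 0.27). The other bright probe sets of Cox5a changed by 0.06 and -0.01, and neither passed. Cox5b read 13.37, 13.28, 13.30, 13.33 and 13.34 on WT and 13.68, 13.30, 13.39, 13.24 and 13.21 on Bach2-deficient arrays. Its WT arrays agreed within 0.1, and replicate 1 was above all of them. Cox4i1, the largest nuclear-encoded subunit, changed by -0.28 (adjusted p = 0.107) and fell without replicate 1 (-0.37).

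Cox7a2l, which ties complex III and complex IV into supercomplexes, fell by 0.36 (SE 0.11, adjusted p = 0.0276). It read 12.46, 12.23, 12.41, 12.29 and 12.33 on WT and 12.05, 12.04, 12.04, 12.13 and 11.66 on Bach2-deficient arrays. The groups did not overlap, and here replicate 5, not replicate 1, stood apart from its group. It did not pass in 3 of the 10 fits on 9 arrays: those without WT replicate 1, WT replicate 3 and Bach2-deficient replicate 2 (-0.33, -0.35 and -0.38).

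Among the 7 complex IV paralogs with restricted expression, Cox7a1 fell and Cox6a2 rose; both belong to the form of the enzyme found in heart and skeletal muscle. Cox7a1 read 8.07, 7.17, 7.21, 7.24 and 6.73 on WT and 6.79, 5.77, 5.97, 5.66 and 5.64 on Bach2-deficient arrays. Replicate 1 was within the WT range, just above its lowest array, and the other 4 were below it. The gene fell by 1.32 (SE 0.28, 2.5-fold, adjusted p = 0.00608). Cox6a2 read 6.72, 7.20, 6.95, 6.64 and 6.62 on WT and 7.46, 7.91, 7.41, 7.74 and 6.78 on Bach2-deficient arrays. All but replicate 5 were above every WT array. The rise of 0.63 (SE 0.21, adjusted p = 0.0419) lost its call in 14 of 20 alternative fits, among them 8 of the 10 on 9 arrays. A second, low probe set of Cox6a2 (4.82 to 5.05) changed by 0.22 and did not pass (limma adjusted p = 0.436 over all probe sets).

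Cox6b2, a form known from testis, had the largest change in size and no call. Its WT values were 8.20, 6.08, 6.28, 9.75 and 8.98, spread over more than 3 log2 units, and its Bach2-deficient values were 5.96, 6.68, 6.32, 6.41 and 6.29. With all arrays it changed by -1.53 (SE 0.65, adjusted p = 0.105). It passed without WT replicate 2 (-1.97) and without WT replicate 3 (-1.92). Cox8b, a muscle form, changed by -0.54 (adjusted p = 0.176), with its 2 highest values in WT replicates 4 and 5 (5.77 and 6.12), the same arrays that were highest for Cox6b2. Cox4i2, a lung form, changed by 0.16 and Cox7b2, a testis form, by -0.08, and neither passed. Cox7b2 and, in complex I, Ndufb4 had means below 4.98, where the dimmest 30% of genes lie, and Cox8b was below that level on 7 of the 10 arrays. The sizes of these 3 changes, and of the paralog difference that uses Cox8b, are therefore not exact.

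Each restricted paralog was set against its widely expressed partner as the per-array difference of their log2 values. The question was whether both moved by the same amount on the same arrays. In 6 pairs tested by an exact permutation test over arrays (2-sided), none passed after Benjamini-Hochberg adjustment over the 6. Cox7a1 minus Cox7a2 differed most clearly, by -1.27 between the groups (exact p = 0.0159, adjusted p = 0.0952), and Cox7a2 itself changed by -0.05. Cox6b2 minus Cox6b1 differed by -1.5 (exact p = 0.127) and Cox8b minus Cox8a by -0.58 (exact p = 0.0794). The other 3 differences were positive: 0.54 for Cox6a2 minus Cox6a1 (exact p = 0.0635), 0.43 for Cox4i2 minus Cox4i1 (exact p = 0.0794) and 0.41 for Ndufa4l2 minus Ndufa4 (exact p = 0.0952). Ndufa4l2, a hypoxia-induced relative of Ndufa4, itself changed by -0.22 (adjusted p = 0.184). On WT and Bach2-deficient arrays, Ndufa4l2 (means 5.93 and 5.72) and Cox4i2 (5.79 and 5.95) read near the array medians, far below their partners. Whether values this low could follow a fall of the partner was not tested. Cox6a1 (0.09), Cox6b1 (-0.03) and Cox8a (0.04), the widely expressed partners, did not pass. A near-background probe set of Cox8a, not used here, rose by 0.65 (4.58 to 5.23, adjusted p = 0.0083 over all probe sets), while its second bright one changed by 0.01. Without Bach2-deficient replicate 1, 3 pairs passed at an adjusted p of 0.0317 each: Cox7a1 (-1.45), Cox4i2 (0.57) and Ndufa4l2 (0.56) against their partners. That array was singled out by the subunit values, so these passes are not separate support. A difference within an array shows unequal change and does not say which partner moved.

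**Figure D4:**
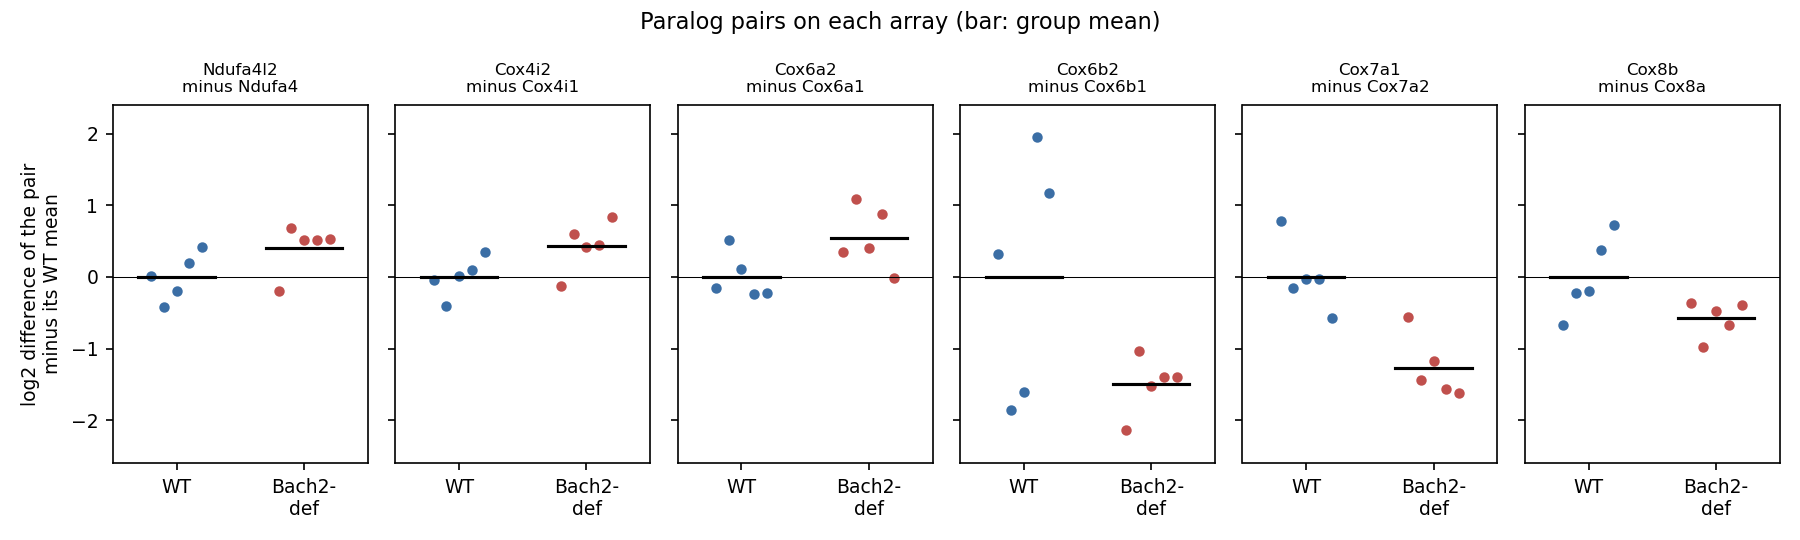
Per-array difference in log2 value between a tissue-restricted subunit and its widely expressed partner, minus the mean of that difference over WT arrays, for 6 pairs (blue, WT; red, Bach2-deficient; bar, group mean; n = 5 each; points run from replicate 1 to 5). Cox7a1 minus Cox7a2 is lower in the Bach2-deficient group by 1.27 on average, and the WT arrays of Cox6b2 minus Cox6b1 are spread over about 4 log2 units.

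All 17 measured genes of the ATP synthase changed below 0, with a median of -0.21, and 4 fell. The count was 8 without Bach2-deficient replicate 1, and 2 without WT replicate 1 or without Bach2-deficient replicate 2, 4 or 5. Atp5k encodes subunit e, a small membrane subunit at the contact between ATP synthase dimers. It read 12.98, 13.04, 13.17, 12.98 and 13.06 on WT and 12.51, 12.09, 12.23, 12.27 and 12.03 on Bach2-deficient arrays. The WT arrays were tightly grouped and every Bach2-deficient array was below them. The gene fell by 0.82 (SE 0.10, 1.77-fold), with the smallest adjusted p of the 82 (0.000578), and it kept its call in all 20 alternative fits. Its probe set is of the _x_at kind, which can read other transcripts, and the gene has named pseudogene copies.

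The peripheral stalk, which holds the head of the enzyme still, had 2 of its 4 genes called. Atp5j, its coupling factor 6, read 11.83, 11.67, 11.70, 11.68 and 11.79 on WT and 11.63, 11.16, 11.24, 11.35 and 11.23 on Bach2-deficient arrays. The groups did not overlap, with replicate 1 just below the lowest WT array, and the gene fell by 0.41 (SE 0.10, adjusted p = 0.0146). Atp5o, the stalk's joint to the head, read 12.62, 12.50, 12.44, 12.37 and 12.46 on WT and 12.45, 11.91, 12.05, 11.96 and 11.99 on Bach2-deficient arrays. It fell by 0.41 (SE 0.12, adjusted p = 0.0231), and replicate 1 was inside the WT range. Its call was lost without WT replicate 1 (-0.38) and without Bach2-deficient replicates 2, 4 and 5 (-0.37, -0.38 and -0.39). Atp5mpl, the remaining gene that fell, changed by -0.40, and 2 of 5 small membrane subunit genes fell in all.

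The catalytic head and the proton-carrying ring had 0 of 8 genes called by limma, and none had an unadjusted p under 0.05. Without Bach2-deficient replicate 1, the ring gene Atp5g2 fell (-0.32, adjusted p = 0.019) and the other 7 did not pass. The 5 head genes changed by -0.24 to -0.05 and the 3 ring genes (Atp5g1 to Atp5g3) by -0.21 to -0.07. Atp5a1 and Atp5b, the alpha and beta chains that bind nucleotides, changed by -0.06 (95% interval -0.24 to 0.12) and -0.05 (-0.25 to 0.14), and Atp5c1, the rotating gamma chain, by -0.15 (-0.35 to 0.05). Atp5b read 12.48, 12.24, 12.27, 12.41 and 12.42 on WT and 12.49, 12.28, 12.28, 12.26 and 12.24 on Bach2-deficient arrays. Its 4 Bach2-deficient replicates 2 to 5 lay within 0.1 of each other and at the lower end of the WT range, and replicate 1 was above all WT arrays.

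The core genes of complexes I, III and V were also counted together. Sdha and Sdhb, which carry the catalysis of complex II, are not among them and did not pass. Cyc1 of complex III is outside the symbol rule, and none of the 17 complex IV genes was counted as core. Of these core genes, 0 of the 12 measured were called by limma (1 at an unadjusted p under 0.05), with a median change of -0.14, and 22 of the other 70 fell, with a median of -0.33. Without Bach2-deficient replicate 1, 3 of the 12 core genes and 42 of the other 70 fell. With all arrays the core count was 4 with median centring, 3 with array weights, and 1 with repeated quantile normalization or trended robust moderation. The difference between the sets was not tested. The sizes were small throughout: 19 of the 22 falls were of less than 1 on the log2 scale. Where a gene had more than 1 probe set the result could be compared between them. This was so for 49 of the 82, and for 11 of the 23 called genes. All probe sets had the same sign for 9 of these 11; the exceptions were a low probe set of Ndufab1 (5.17 to 5.24, a change of 0.07) and a dim one of Ndufb9 (0.39), and neither passed.

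Other nuclear genes of the mitochondrion were counted in the same fit, in which 12.4% of all genes fell and 16.3% rose. Of 44 assembly factors, which build the complexes, 11 fell and 1 rose, with a median of -0.29. Ndufaf8 (-1.47) and Ndufaf6 (-0.87), both complex I assembly factors, fell, and Foxred1, another, rose (0.34). Of 76 mitochondrial ribosomal protein genes, 28 fell and 2 rose, with a median of -0.30. Mrpl12 fell by 1.30 and Mrps35 by 0.95, and Mrpl10 (0.65) and Mrpl4 (0.60) rose. Of 23 genes of the import translocases, 9 fell, with Timm8a1 (-0.80) and Timm13 (-0.97) leading by p, and Tomm34 rose (0.51); the median was -0.32. The medians of these 3 lists lay between -0.32 and -0.29, beside -0.27 for the subunits.

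The tricarboxylic acid cycle, which feeds the chain, had 0 of 12 genes called and a median of -0.05. At an unadjusted limma p under 0.05 the count was 1, Ogdh, which was higher. Of 15 genes for electron carriers and quinone synthesis, 3 fell and 0 rose, with a median of -0.15. Etfb, which brings electrons from fat oxidation, fell by 0.46 and Coq7, of ubiquinone synthesis, by 0.78. Of 15 regulators of mitochondrial biogenesis, 2 fell and 1 rose, a share near that of all genes, with a median of -0.002. Ssbp1, the mitochondrial single-stranded DNA-binding protein, fell by 0.80 and Twnk, the mitochondrial helicase, by 0.54. Gabpb1, the partner chain of GABP, rose by 0.64. Of 46 cytosolic ribosomal protein genes, 10 fell and 1 rose, with a median of -0.15. Rps19 (-0.46) and Rpl8 (-0.48) led the falls by p, Rpl14 fell most (-0.72), and Rps4l rose (1.63).

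**Figure D5:**
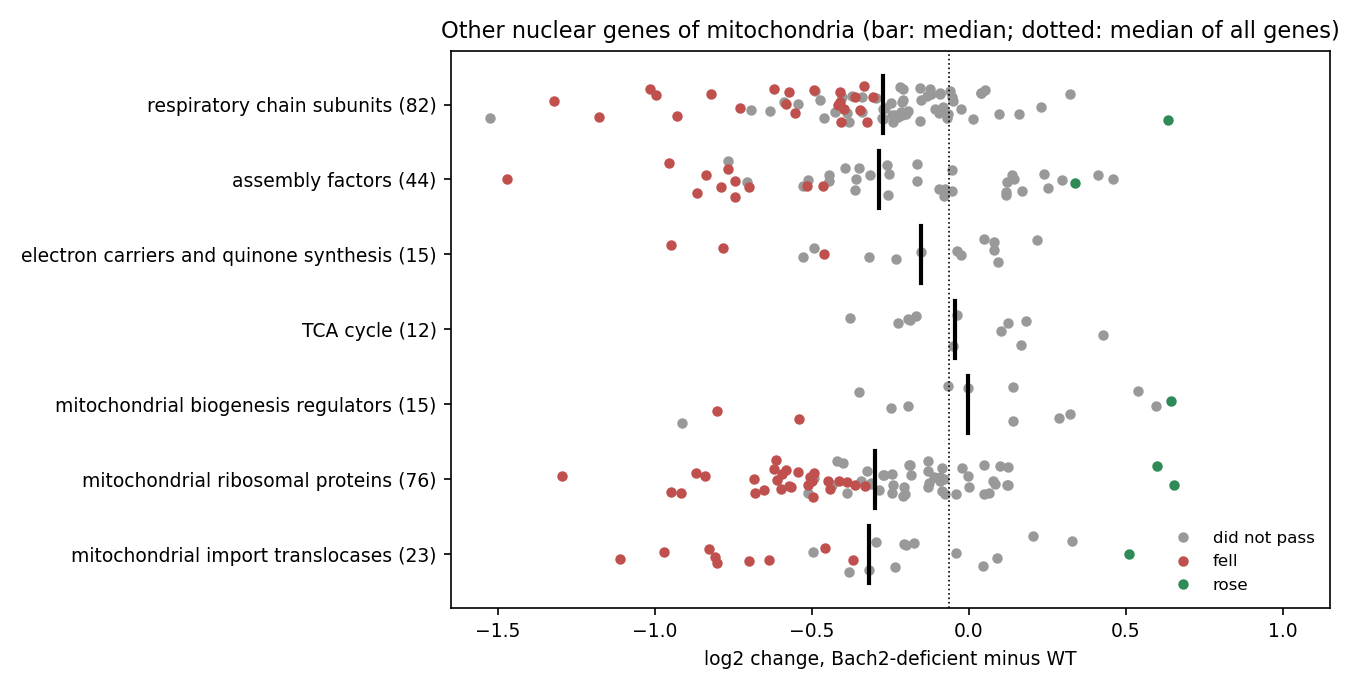
Change of single genes (log2, Bach2-deficient minus WT; red fell, green rose, grey did not pass) in the 82 subunits and 6 other lists, with the number of genes in brackets, the list median as a bar and the median of all genes (-0.064) as a dotted line. Medians lie between -0.32 and -0.27 for subunits, assembly factors, ribosomal proteins and import translocases, and at -0.05 and -0.002 for the TCA cycle and the biogenesis regulators.

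Markers of other cell types moved with the groups. All 10 T cell genes rose (median 2.69; Cd8a 4.23, and Cd8b1 from 4.77 ± 0.64 to 9.48 ± 0.77, SD, n = 5 each, the first of which is under 4.98, so that its size is not exact), and 9 of 12 macrophage genes rose (median 1.21; Csf1r 1.93, Fcgr1 2.07). The macrophage mean was 8.90 to 10.22 on WT and 10.45 to 11.22 on Bach2-deficient arrays. Of 14 melanocyte genes, 4 fell, among them Oca2 (-0.90) and Trpm1 (-0.59), with a median of -0.31. Of 11 fibroblast genes 5 fell, with Mgp (-2.67) and Col6a3 (-2.28) first, and their mean was 7.25 to 7.91 on WT and 6.14 to 7.32 on Bach2-deficient arrays. Of 7 red cell genes 3 fell, led by Slc4a1 (-5.13) and Alas2 (-4.16), with means of 5.98 to 8.72 and 4.12 to 5.11. Among 15 cell cycle genes, Mki67 (-0.69) was the only one called, and it fell.

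Muscle and fat markers bear on the restricted subunits. Of 15 skeletal muscle genes, 9 of them in the dimmest 30% of genes, Myh1 (-0.84) and Tnnt3 (-0.63) fell and Atp2a1 (0.63) rose. Both group means of Myh1 and the Bach2-deficient mean of Tnnt3 lay under 4.98, and their falls are known only roughly in size. The mean of the muscle genes was 4.81 to 5.13 on WT and 4.68 to 4.79 on Bach2-deficient arrays. Of 5 brown fat genes, 3 of them in the dimmest 30%, Zic1 (-1.29) and Elovl3 (-0.34, also under 4.98 in both groups' means) fell. Cidea (0.17), Dio2 (0.09) and Ucp1 (0.09) changed the other way and did not pass. The median change of the brown fat genes was 0.09, and their means were 4.52 to 4.86 and 4.35 to 4.64. Of 7 fat cell genes, Fabp4 (-0.82) fell and Pparg (0.80) rose, with means of 6.65 to 6.76 and 6.63 to 6.81. The part of these cells in the values of Cox7a1, Cox8b and Cox6a2 was not tested.

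With the melanocyte mean as a covariate in the fit, 1 of the 82 subunit genes fell, Atp5k, and 1.12% of all genes did. The median change of the subunits was then -0.12, and 59 of 82 changes were below 0. The covariate itself differed between the groups, so a change shared with it is removed with it. With a term for the level of Xist, a transcript of the inactive X chromosome that was high on all WT arrays and on Bach2-deficient replicate 2 (11.37 to 12.23 and 11.87) and low on the other 4 (4.76 to 6.61), 2 subunit genes fell, Ndufs5 and Atp5k, and 1.71% of all genes did. The median of the subunits was -0.35 there, and 74 of 82 changes were below 0. Eif2s3y, a gene of the Y chromosome, ran opposite to Xist. It read 5.07 to 7.68 on WT arrays, 4.50 on Bach2-deficient replicate 2 and 10.52 to 10.93 on the other 4. The labels do not give the sex of the animals, and the part of sex in the subunit changes was not tested beyond the Xist term. The poly-A spike controls, added before labelling, also differed between the groups by -2.09, and the hybridization controls by -0.64, lower on the Bach2-deficient arrays without overlap (exact permutation p = 0.00794 for each, the smallest that 5 against 5 allows). The 3′ minus 5′ difference of the Gapdh control, a sign of RNA integrity, was 0.54 to 0.64 on WT and 0.57 to 0.62 on Bach2-deficient arrays (exact p = 1), and that of beta-actin was 0.81 to 1.16 and 0.59 to 1.07 (exact p = 0.0556). The part of the controls in the subunit changes was not tested, and a technical difference between the groups cannot be told apart from genotype.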

How the data were processed

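RNA was measured on Affymetrix 3′ expression arrays (5 WT and 5 Bach2-deficient B16 tumors). The deposited values are log2 expression made by the authors; per the submitters' processing notes RMA and Partek were used, with versions and genome build not given in the sources used here. RMA makes the arrays' distributions nearly equal, so changes are relative. Of 45101 probe sets, 34945 had a single gene symbol; the brightest for each gene gave 18193 genes. No detection calls were used, and precision is limited by the 10 arrays.

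The fit used lmFit and eBayes of limma 3.58.1 (R 4.3.3; 2-sided) with genotype as the single factor and Benjamini-Hochberg adjustment over all genes; the fit was tested on simulated data. The members, lists and alternatives were chosen with earlier results of these data known. Named genes were the paralog pairs, complex II, the core genes, Cox5a, Cox5b, the 3 largest called changes per complex and direction, and for other lists the 2 called genes with the smallest p in each direction; genes named beyond this were chosen after their values were seen. Replicate numbers were checked for pairing: same-numbered arrays had correlations of 0.323, 0.00619, 0.221, 0.0895 and 0.0628, so the numbers were not taken as pairs. Alternatives were median centring, repeated quantile normalization, a filter on dim genes, other probe set rules, trended robust moderation, array weights, a replicate block, melanocyte and Xist covariates, and leaving out each array.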

Additional observations from a re-analysis of the deposited data

Results flagged for a closer look

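For the named genes, each group of 5 arrays was checked for a single array far from the rest: the gap to its nearest neighbour over the group's range had to pass 0.71, Dixon's 95% value for 5. Chance flags about 1 in 20 groups, and 10 of 78 were flagged.

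Bach2-deficient replicate 1 was the high value in 8 of the 10. For the ATP synthase it read 12.92 for Atp5a1 (next highest 12.73), 12.49 for Atp5b (12.28), 12.93 for Atp5c1 (12.65) and 12.45 for Atp5o (12.05). For complex I it read 10.71 for Ndufs1 (next 10.27) and 12.18 for Ndufs3 (11.95). It read 11.21 for Sdhb of complex II (next 10.63) and 6.79 for Cox7a1 of complex IV (5.97). These 8 flags come from 1 array and are not separate findings.

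Cox7a2l was low on Bach2-deficient replicate 5, at 11.66 with the nearest array at 12.04. Cox6a1 was low on WT replicate 2, at 12.39 with the nearest at 12.55.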

How the results depend on the processing

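The count of subunit genes that fell (22) was 47 with median centring, which also moved the median of all genes from -0.064 to -0.22 and that of the subunits to -0.43, so the gap between them hardly moved. It was 41 with array weights, 1 with the melanocyte covariate and 2 with the Xist covariate, and 10 to 45 with 1 array left out. Over all genes, where 12.4% fell, the share was 26.5% with median centring, 17.7% with array weights, 1.12% and 1.71% with the covariates and 7.63% to 15.4% with 1 array left out, so calls over all genes moved the same way. The covariates take up degrees of freedom and follow genotype in part. Under quantile normalization, trended robust moderation, the dim-gene filter and both other probe set rules the subunit count stayed within 20 to 31. With the replicate block 23 fell, of which 18 also fell without it, and 1 rose; the numbers are not known to pair the arrays. The single rise became 0 with median centring, repeated quantile normalization, trended robust moderation, array weights and the melanocyte covariate. It became 2 without _x_at and _s_at probe sets (Cox6a2 and Sdha), and 0 to 1 with 1 array left out. With the mean of probe sets, and without WT replicate 4, the gene that rose was Sdha of complex II, and Cox6a2 was not called.

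Paralog differences passed with the mean of probe sets for Cox7a1 minus Cox7a2 (-1.17) and Cox8b minus Cox8a (-0.77), where a near-background probe set of Cox8a that rose by 0.65 enters the mean. With 1 array left out they ran from -1.45 to -1.08 for Cox7a1 minus Cox7a2, -0.75 to -0.40 for Cox8b minus Cox8a (passing without WT replicate 1), 0.33 to 0.57 for Cox4i2 minus Cox4i1 and 0.30 to 0.56 for Ndufa4l2 minus Ndufa4.

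Of the 82 genes, 24 changed sign in at least 1 alternative, and none of these was called before or after. The 18 of them that the text names by rule are given first. With the melanocyte covariate the medians of complex II (0.038) and complex IV (0.0064) turned positive, as did Atp5a1 (0.064), Atp5b (0.077), Cox6b1 (0.089), Cox7a2 (0.0064), Cox7b2 (0.13), Cox8b (0.0013), Ndufs1 (0.15), Ndufs7 (0.0053), Sdhc (0.018), Sdhd (0.058) and Uqcrfs1 (0.0013), and Uqcrc1 turned negative (-0.044). With median centring Cox4i2 (-0.00094), Cox5b (-0.12), Cox6a1 (-0.065), Cox8a (-0.12), Uqcrc1 (-0.15) and Uqcrc2 (-0.11) turned. Repeated quantile normalization turned Cox7b2 (0.0079), Cox8a (-0.085) and Uqcrc1 (-0.15), and array weights Cox5b (-0.023), Cox8a (-0.0026) and Uqcrc2 (-0.033). The Xist covariate turned Cox7b2 (0.32), Cox8a (-0.0050) and Uqcrc1 (-0.025). Other probe set rules turned Cox5b (-0.12 as a mean, -0.080 without _x_at and _s_at), Uqcrc2 (-0.0072 as a mean) and Atp5c1 (0.11 without _s_at). Leaving out 1 array gave -0.040 to 0.078 for Cox5b, -0.092 to 0.0089 for Cox6b1, -0.27 to 0.25 for Cox7b2, -0.022 to 0.082 for Cox8a, -0.037 to 0.064 for Uqcrc1 and -0.054 to 0.10 for Uqcrc2. Of the 6 other genes, Atp5g1, Atp5g2, Atp5md and Ndufa9 turned with the melanocyte covariate, Ndufs4 with the mean of probe sets (0.21) and Ndufa12 without _x_at and _s_at probe sets. The mean of Ndufs4 takes in low probe sets that changed by 0.94 and 0.42, beside bright ones at -0.25 and -0.28. Without _x_at and _s_at probe sets, Ndufa12 was read by a low probe set (5.58 to 5.64), and Atp5c1 by a less bright probe set (8.48 to 8.59). Beyond such changes of probe set, the cause of these shifts was not tested.

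With 5 arrays a group, and 1 Bach2-deficient array that reads like WT for these genes, the smallest fall called was -0.31, and larger changes could miss the threshold. Changes of genes with values under 4.98 (Cox7b2, Cox8b and Ndufb4) have no exact size. The 19 genes read by _x_at or _s_at probe sets, 5 of which fell (Atp5k, Atp5o, Ndufa13, Ndufa2 and Ndufc2), and the 10 with named pseudogene copies can also read other transcripts.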
